A study of Equus caballus with 10 samples.

Results

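Enzymes are described here that break down tryptophan through kynurenine or that make and compete for the substrate and cofactor of nitric oxide synthase. They are IDO1, TDO2, KMO, KYNU, AADAT, TAT, NOS2, GCH1, ASS1 and ARG2, and the 10 were taken by gene name from the 29196 genes of the expression table. They were chosen by their role with the log2 difference between the groups already known, so the values of these 10 genes are given as a description and carry no test. The cells were primary tenocytes, the resident cells of tendon, isolated from the superficial digital flexor tendon of adult horses and passaged before use. Tenocyte lines from 5 donors, called donors 1 to 5, each gave 1 library to each of the 2 groups. All 10 libraries came from 3D collagen gels kept for 14 days with the IRAK-4 inhibitor PF-06650833, added daily at 100 nM. One group received this inhibitor alone (PF alone), and the other also received the cytokine IL-1β at 17 ng/ml every 3 to 4 days (IL-1β/PF). The comparison therefore asks what IL-1β did in cells given an inhibitor of IRAK-4, a kinase below the IL-1 receptor, throughout. The activity of IRAK-4 was not measured in these libraries. Libraries without the inhibitor were not analysed here.

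Tryptophan is opened by a dioxygenase, either IDO1, which interferon and other inflammatory signals induce in many cell types, or TDO2, which is best known from liver. The product is converted to kynurenine, which is then hydroxylated by KMO, cleaved by KYNU, or transaminated by AADAT to kynurenic acid, and the hydroxylated branch leads towards NAD. NOS2, the inducible nitric oxide synthase, oxidises arginine to nitric oxide and citrulline and needs tetrahydrobiopterin, whose synthesis begins with GCH1. ASS1 takes part in rebuilding arginine from citrulline, and ARG2, the mitochondrial arginase, splits arginine into ornithine and urea. TAT, tyrosine aminotransferase, belongs to the breakdown of another aromatic amino acid and is a classic glucocorticoid-induced gene of liver.

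Values are on the deposited log2 scale, on which a gene with 0 reads lies at 3.43 and differences between weakly expressed genes are compressed. Estimated reads per library, recovered from the spacing of the low values, ranged from 26389447 to 35852148 and overlapped between the groups, and a count of 0 still allows up to 3 reads. Of 17992 tested genes, 1202 (6.68%) passed an adjusted p below 0.05 (limma, Benjamini-Hochberg) with a log2 difference of at least 1, 560 (3.11%) upwards and 642 (3.57%) downwards with IL-1β/PF. The tendon identity of the cells was checked with a marker list. The collagen genes COL1A1 and COL1A2 were detected in all libraries, the surface protein gene TNMD was listed at 0 reads in all 10, and 4 of 11 tested tenocyte markers (SCX, MKX, TNC and COMP) fell while 0 rose. The summed normalised counts of the tenocyte list ran from 894833 to 1480420 with PF alone and from 242875 to 1000360 with IL-1β/PF. COL1A1 and COL1A2 had the highest means of this list and so weigh most in the sum. They differed by -1.38 and -1.28 and did not pass (adjusted p = 0.0682 and 0.0614, limma). DCN, the next by mean, differed by 1.01 (adjusted p = 0.268, limma). Of the markers of other cell types, 0 of 6 tested endothelial genes passed, 2 of 5 mural genes fell (RGS5 and DES) and 1 of 5 epithelial and hepatocyte genes fell (CDH1). In bulk libraries, fewer cells of a type and less RNA per cell cannot be told apart.

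Of the 10 enzymes, 7 had reads in 5 or more libraries and so entered the fit, whereas IDO1, KYNU and KMO did not. NOS2, TAT and GCH1 lay above the thresholds with IL-1β/PF and AADAT below them, 4 in all. The background among tested genes was 6.68% (3.11% upwards, 3.57% downwards), and since this contrast chose the enzymes nothing is read from the count. The same 4 genes had groups that did not overlap, against a background of 12.7%. TAT entered the fit only through its IL-1β/PF libraries, so it had to differ. GCH1 was the least stable, since it missed the thresholds in 7 of the 15 fits that left out a donor or a library.

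**Figure D1:**
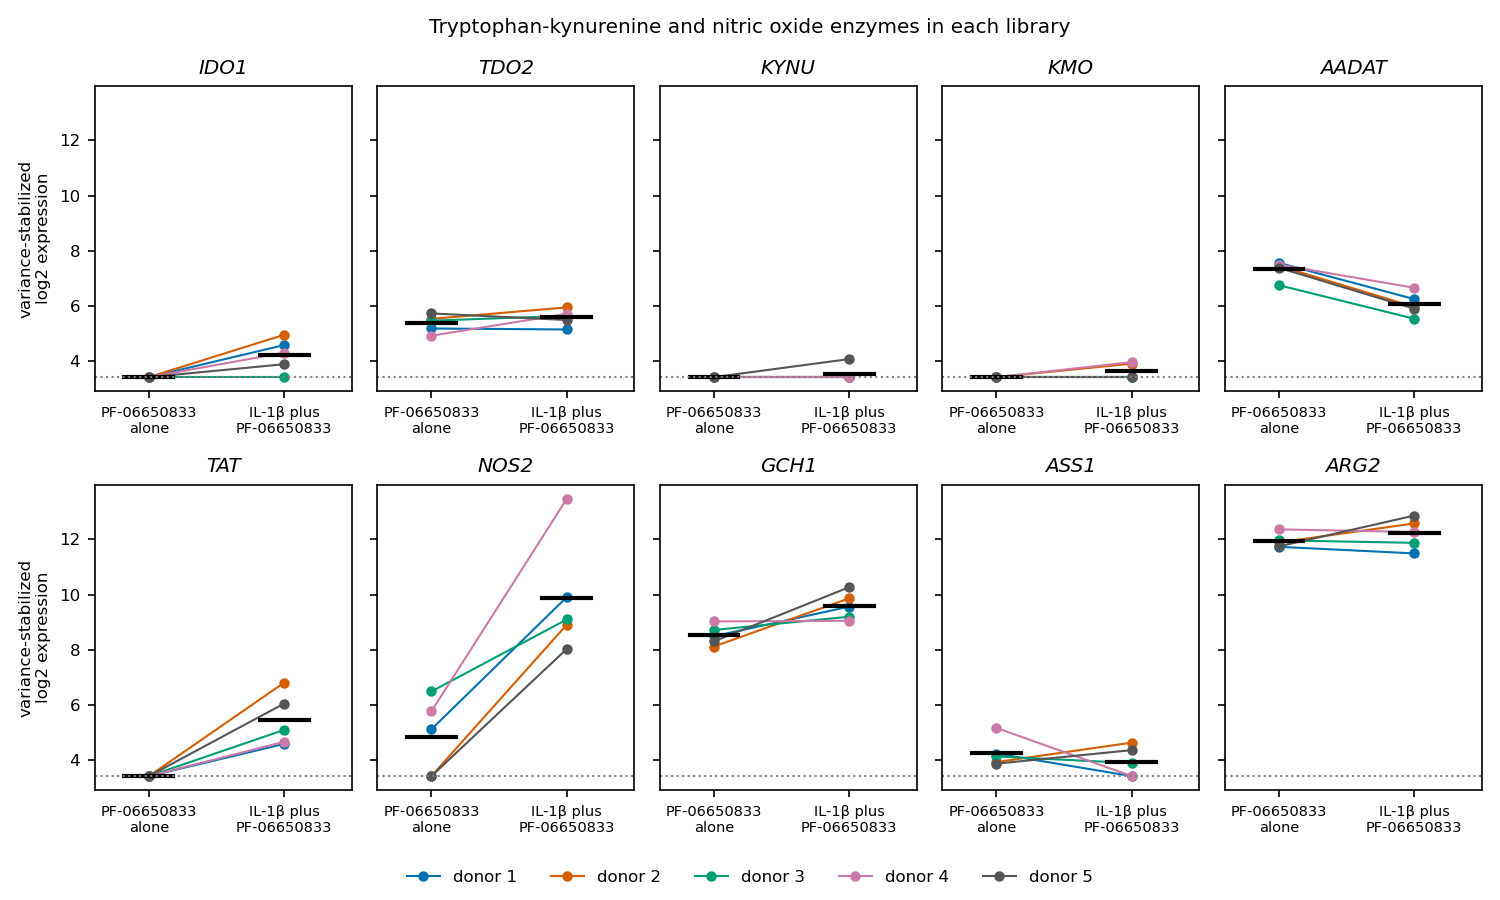
Log2 expression of the 10 enzyme genes in each of the 10 libraries, one panel per gene, with PF alone and IL-1β/PF side by side and the 2 libraries of a donor joined by a line. The dotted line marks the value of 0 reads and the bars the group means. NOS2 and TAT rise in each donor, AADAT falls in each donor, and KYNU and KMO stay at or near the value of 0 reads.

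The enzymes of the entry step to the kynurenine pathway had few reads in these cells. IDO1 was listed at 3.43, the value of 0 reads, in all 5 libraries with PF alone. With IL-1β/PF it was at 4.59, 4.97, 3.43, 4.32 and 3.90 in donors 1 to 5, which corresponds to about 6, 12, 0, 3 and 1 reads. Reads therefore appeared in 4 of 5 donors and totalled 22, with donor 3 still at 0, and no fold is given against a group at 0. TDO2, which catalyses the same step, was present in every library at a low level. Its log2 values were 5.19, 5.54, 5.48, 4.93 and 5.74 with PF alone and 5.16, 5.96, 5.65, 5.72 and 5.50 with IL-1β/PF, or 12 to 32 and 14 to 38 reads. The means of 5.38 ± 0.32 and 5.60 ± 0.30 (SD, n = 5) differed by 0.22, less than the spread within either group. TDO2 was higher in 3 donors and lower in 2, and the groups overlapped.

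The branch enzymes that lead to 3-hydroxykynurenine and its cleavage products were close to undetected. KMO had 1 estimated read in donor 2 and 1 in donor 4 with IL-1β/PF (3.92 and 3.98), and was listed at 0 reads in the other 8 libraries. KYNU had 2 estimated reads in donor 5 with IL-1β/PF (4.09) and was listed at 0 in the other 9. At this depth no difference in either gene was detectable.

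**Figure D2:**
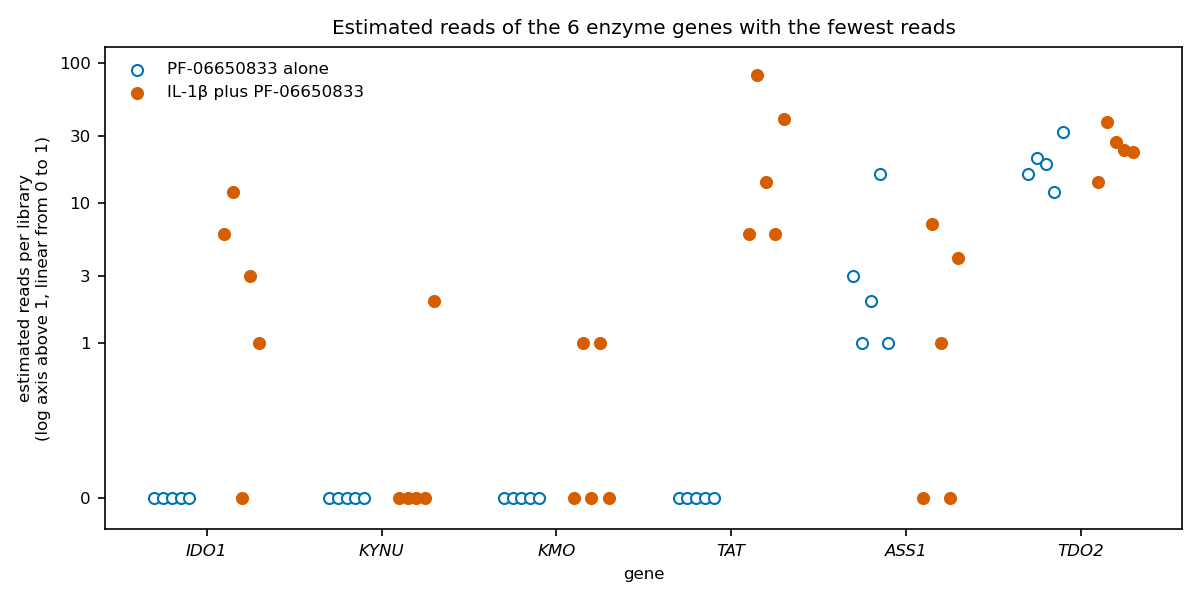
Estimated reads in each library for the 6 enzyme genes with the fewest reads, on an axis that is logarithmic above 1 read, with 1 point per library and open points for PF alone. TAT has 0 reads in all 5 libraries with PF alone and 6 to 82 with IL-1β/PF, whereas KYNU and KMO never exceed 2 reads.

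AADAT, the transaminase that diverts kynurenine to kynurenic acid and that also acts in lysine breakdown, was lower with IL-1β/PF in all 5 donors. Its log2 values were 7.57, 7.46, 6.76, 7.50 and 7.39 with PF alone and 6.26, 5.97, 5.54, 6.67 and 5.91 with IL-1β/PF. The lowest library with PF alone, donor 3, lay just above the highest with IL-1β/PF, donor 4. The means were 7.34 ± 0.33 and 6.07 ± 0.42 (SD, n = 5), a difference of -1.27, and the mean normalised count fell from 143.8 to 49.7, to 0.345 of its level. Within donors the log2 difference ran from -1.49 in donor 2 to -0.84 in donor 4, a narrow range beside that of NOS2. These values rest on 67 to 150 reads per library with PF alone, and on 24 to 57 once IL-1β was added.

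TAT, which transaminates tyrosine, was listed at 0 reads in every library with PF alone and had reads in every library with IL-1β/PF. The log2 values with IL-1β/PF were 4.60, 6.82, 5.11, 4.68 and 6.06 in donors 1 to 5, or about 6, 82, 14, 6 and 40 reads. Of the 148 reads of the group, donors 2 and 5 held the most. On the compressed scale the within-donor differences ran from 1.17 to 3.38.

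NOS2, the inducible nitric oxide synthase, had the largest difference of the 10 genes on the log2 scale. With PF alone it was at 5.13, 3.43, 6.50, 5.77 and 3.43, and donors 2 and 5 were thus listed at 0 reads while donor 3 had 53. With IL-1β/PF it was at 9.91, 8.91, 9.10, 13.46 and 8.03, or about 762, 409, 461, 7976 and 208 reads. The groups did not overlap, since the lowest library with IL-1β/PF, donor 5 at 8.03, stood above the highest with PF alone, donor 3 at 6.50. The mean difference was 5.03, and within donors it was 4.78, 5.48, 2.60, 7.69 and 4.60. In normalised counts NOS2 was 56.5-fold higher in donor 1, 7.54-fold in donor 3 and 320-fold in donor 4, and no fold is given for donors 2 and 5. Donor 4 stood above the other donors with IL-1β/PF, and without its 2 libraries the mean difference was 4.37.

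NOS2 is also expressed by activated macrophages, and a leukocyte list was therefore read beside it. Of 12 macrophage and leukocyte genes 4 could be tested and 1 rose and 0 fell. The 1 that rose was CD68 (log2 difference 1.70, adjusted p = 0.00795, limma), a lysosomal protein gene with 50 to 82 reads with PF alone and 149 to 656 with IL-1β/PF. AIF1, TYROBP and CD3E were at 0 reads in all libraries, PTPRC had at most 3 reads and CSF1R at most 1. CD14 varied by donor, with a log2 difference of 2.66 (adjusted p = 0.340, limma). It had 1474, 233, 0, 0 and 0 reads in donors 1 to 5 with PF alone, and 0 to 1362 with IL-1β/PF. The other 2 tested genes did not pass either. LAPTM5, a lysosomal gene of blood cells, differed by -1.67 (adjusted p = 0.0957), with 11 to 207 reads with PF alone and 0 to 35 with IL-1β/PF. ITGAM, a leukocyte integrin gene, differed by 0.37 (adjusted p = 0.568) on 1 to 29 reads per library. The summed normalised counts of the list were 82.5 to 1837 with PF alone and 179 to 1946 with IL-1β/PF. With IL-1β/PF, CD14 had 1362, 624, 0, 290 and 1048 reads in donors 1 to 5. NOS2 had 762, 409, 461, 7976 and 208 reads in the same libraries. A link between these genes was not tested.

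GCH1, the first and limiting enzyme of tetrahydrobiopterin synthesis, was higher with IL-1β/PF on average, but to very different degrees among donors. It was at 8.49, 8.12, 8.72, 9.03 and 8.31 with PF alone and at 9.57, 9.87, 9.20, 9.05 and 10.27 with IL-1β/PF. The groups were separated by only the narrow gap between the 2 libraries of donor 4, which differed by 0.02. The means were 8.54 ± 0.35 and 9.59 ± 0.49 (SD, n = 5), a difference of 1.06, and the fold in normalised counts was 2.17, 3.54, 1.41, 1.02 and 4.10 in donors 1 to 5. Leaving out donor 1, 2 or 5 gave differences of 1.05, 0.88 and 0.83 and took GCH1 below the thresholds. The same happened without either library of donor 2 or of donor 5, with differences from 0.89 to 1.00.

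The enzymes that supply and consume arginine beside NOS2 showed no common direction. ASS1, which condenses citrulline and aspartate, was at 4.25, 3.94, 4.15, 5.18 and 3.88 with PF alone and at 3.43, 4.65, 3.91, 3.43 and 4.37 with IL-1β/PF. This was 1 to 16 reads and 0 to 7 reads, and ASS1 was lower in donors 1, 3 and 4 and higher in donors 2 and 5. The mean difference of -0.32 lay within the spread of each group, and it was -0.098 without the PF alone library of donor 4, which held 16 of the 23 reads of its group, and 0.03 without both libraries of that donor. ARG2, the mitochondrial arginase, had 2840 to 4837 reads with PF alone and 2313 to 6387 with IL-1β/PF. It was at 11.73, 11.89, 11.96, 12.36 and 11.74 with PF alone and at 11.49, 12.58, 11.87, 12.26 and 12.86 with IL-1β/PF. The means of 11.94 ± 0.26 and 12.21 ± 0.55 (SD, n = 5) differed by 0.28 and the groups overlapped. In normalised counts ARG2 was 1.62-fold higher in donor 2 and 2.17-fold in donor 5, and it was at 0.847, 0.940 and 0.936 of its PF alone level in donors 1, 3 and 4.

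**Figure D3:**
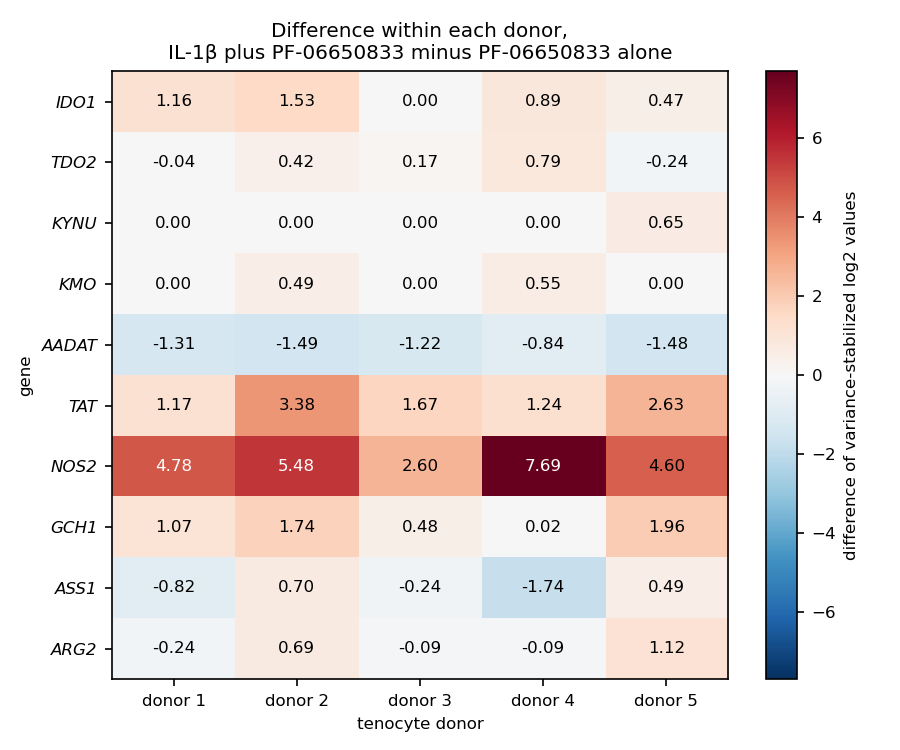
Log2 difference within each donor, IL-1β/PF minus PF alone, for the 10 enzyme genes, with 1 cell per gene and donor and the value printed in it. NOS2 differs by 2.60 to 7.69, and donors 2 and 5 hold the highest 2 values of TAT, GCH1, ASS1 and ARG2.

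Donors 2 and 5 held the highest 2 within-donor differences of TAT, GCH1, ASS1 and ARG2, 4 of the 7 enzymes that entered the fit. This pattern was picked out after the values had been seen. Among all tested genes 16.7% had their highest 2 differences in these donors, and among the 560 genes that rose 22.5% did. On the deposited scale NOS2 did not follow it, with its largest difference in donor 4. Donors 2 and 5 were listed at 0 reads of NOS2 with PF alone, where the scale compresses differences. The order of the donors for NOS2 therefore rests on the scale. By signed difference AADAT did not follow it either, since its fall was smallest in donor 4 (-0.84). The fall of AADAT was largest in donors 2 and 5 (-1.49 and -1.48), so by size these donors also came first. The reads of CD68 with IL-1β/PF were also highest in donors 2 and 5, at 656 and 323, and the part of this in the donor pattern was not tested.

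Outside these 10 genes, the genes of tryptophan, kynurenine and NAD metabolism were counted in the same fit. The list was chosen with earlier results of these data known, so its share and the p values of its genes are descriptive. The table held 40 such genes, and of the 28 that could be tested 2 rose and 0 fell, which is 7.14% against 6.68% of all tested genes, and the median log2 difference was 0.098 against -0.0063 over all. NAMPT, the limiting enzyme of NAD salvage from nicotinamide, rose from 11.01 ± 0.13 to 12.41 ± 0.85 (SD, n = 5), a log2 difference of 1.40 (SE 0.33, adjusted p = 0.0161, limma), and was higher in all 5 donors. DDC, the aromatic amino acid decarboxylase, rose from 5.01 ± 0.52 to 6.33 ± 0.62 (SD, n = 5; log2 difference 1.31, SE 0.34, adjusted p = 0.0241, limma) on 3 to 24 reads with PF alone and 16 to 95 with IL-1β/PF. DDC was higher in 4 donors and not in donor 4. The calls were not stable, since leaving out donor 1, 2 or 5 left 0 of the 2, and leaving out donor 4 gave 4.

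Genes at the steps next to the chosen enzymes were examined in the same fit. AFMID, which releases kynurenine from the product of IDO1 and TDO2, had a log2 difference of -0.65 (adjusted p = 0.127, limma) and did not pass. The other kynurenine aminotransferases, KYAT1 and KYAT3, differed by 0.58 (adjusted p = 0.0145) and by -0.40 (adjusted p = 0.139), and KYAT1 thus passed on p but not on the size of the difference. IDO2 was at 0 reads in all libraries with PF alone and had at most 11 with IL-1β/PF. Of the enzymes that carry the pathway on to NAD, HAAO had at most 5 reads in any library and QPRT at most 10, and ACMSD was listed at 0 throughout.

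The named carriers, the tRNA synthetase and the receptor of this pathway did not pass both thresholds either. SLC36A4, a proton-independent amino acid transporter, differed by 0.53 (adjusted p = 0.00131). SLC7A5 and its partner SLC3A2, which together import large neutral amino acids, differed by -0.70 (adjusted p = 0.0530) and 0.16 (adjusted p = 0.639). SLC7A11, the cystine carrier that shares the partner SLC3A2, differed by 1.47 with a wide spread (adjusted p = 0.0618), and it passed without donor 4 (1.87). WARS, the tryptophanyl-tRNA synthetase, was at 14.95 in donor 4 with IL-1β/PF, above the other 4 libraries of that group, and differed by -0.54 (adjusted p = 0.243). AHR, the receptor that binds kynurenine, differed by 0.75 (adjusted p = 0.0503). With the donor as a block its adjusted p was 0.0118 (limma), and it then missed the size threshold only.

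Of 41 further genes of arginine, nitric oxide and tetrahydrobiopterin metabolism 37 were tested, and 3 rose and 4 fell, 18.9% against 6.68% of all tested genes. This list too was chosen with earlier results of these data known. Nothing is therefore read from its share, and the p values of its genes are descriptive. Their median log2 difference was -0.042. The largest of them was SLC7A2, a cationic amino acid transporter that brings arginine into the cell. Its log2 values were 5.21, 3.94, 7.77, 8.34 and 4.92 with PF alone and 12.62, 11.51, 12.57, 14.76 and 13.06 with IL-1β/PF. SLC7A2 rose by 6.87 (SE 0.86, adjusted p = 6.52e-04, limma), with 1 to 281 reads becoming 2569 to 19615. The other cationic carriers of the family were lower in all 5 donors. SLC7A1 fell by 1.23 (SE 0.26, adjusted p = 0.00998) and SLC7A3 fell by 2.73 (SE 0.65, adjusted p = 0.0162). SLC7A1 had at least 3149 reads with PF alone and at most 2470 with IL-1β/PF.

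Polyamines are made from the ornithine that arginase produces. The other increases were in enzymes that act on the polyamines themselves and not on ornithine. SMOX, spermine oxidase, rose by 2.21 (SE 0.44, adjusted p = 0.00715) in all 5 donors, and SAT1, which acetylates spermidine and spermine, rose by 1.07 (SE 0.27, adjusted p = 0.0221). SAT1 was higher in 4 donors and not in donor 3. ODC1, which makes putrescine from ornithine, varied among donors (log2 difference 0.64, adjusted p = 0.471). OAZ2, an inhibitor of ODC1, differed by 0.36 (adjusted p = 0.0431), and OAT, which moves ornithine towards proline and glutamate, by -0.74 (adjusted p = 0.0126), neither reaching the size threshold.

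Downstream of nitric oxide, GUCY1A1 and PDE5A fell. GUCY1A1, a subunit of the soluble guanylate cyclase that nitric oxide activates, fell by 2.33 (SE 0.42, adjusted p = 0.00416) in all 5 donors, from 147 to 453 reads to 9 to 107. PDE5A, which breaks down the cyclic GMP that this enzyme makes, fell by 1.38 on average (SE 0.35, adjusted p = 0.0229, limma). Its within-donor difference was uneven, from -2.23 to -0.036, and donor 3 hardly changed (10.26 to 10.22). The call of PDE5A was lost in 6 of the 15 fits that left out a donor or a library. GUCY1B1, the partner subunit of GUCY1A1, differed by -0.093 with a wide spread and did not pass (adjusted p = 0.952). DDAH1, which clears the endogenous inhibitor of nitric oxide synthases, differed by -1.32 and did not pass (adjusted p = 0.0835), but it did with the donor as a block (adjusted p = 0.00122). DDAH2 differed by -0.53 (adjusted p = 0.0507), and PRMT1, which makes the methylated arginine that these enzymes clear, by 0.70 (adjusted p = 0.00977, below the size threshold).

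The genes next to GCH1 and ASS1 did not pass. PTS and SPR, the enzymes after GCH1, differed by 0.14 (adjusted p = 0.488) and 0.024 (adjusted p = 0.954), and GCHFR, the feedback regulator of GCH1, by 0.46 (adjusted p = 0.225). ASL, which follows ASS1, differed by -0.28 (adjusted p = 0.395). The other nitric oxide synthases had few reads, at most 9 in any library for NOS1 and at most 3 for NOS3, and ARG1, the cytosolic arginase, had 1 read in all.

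**Figure D4:**
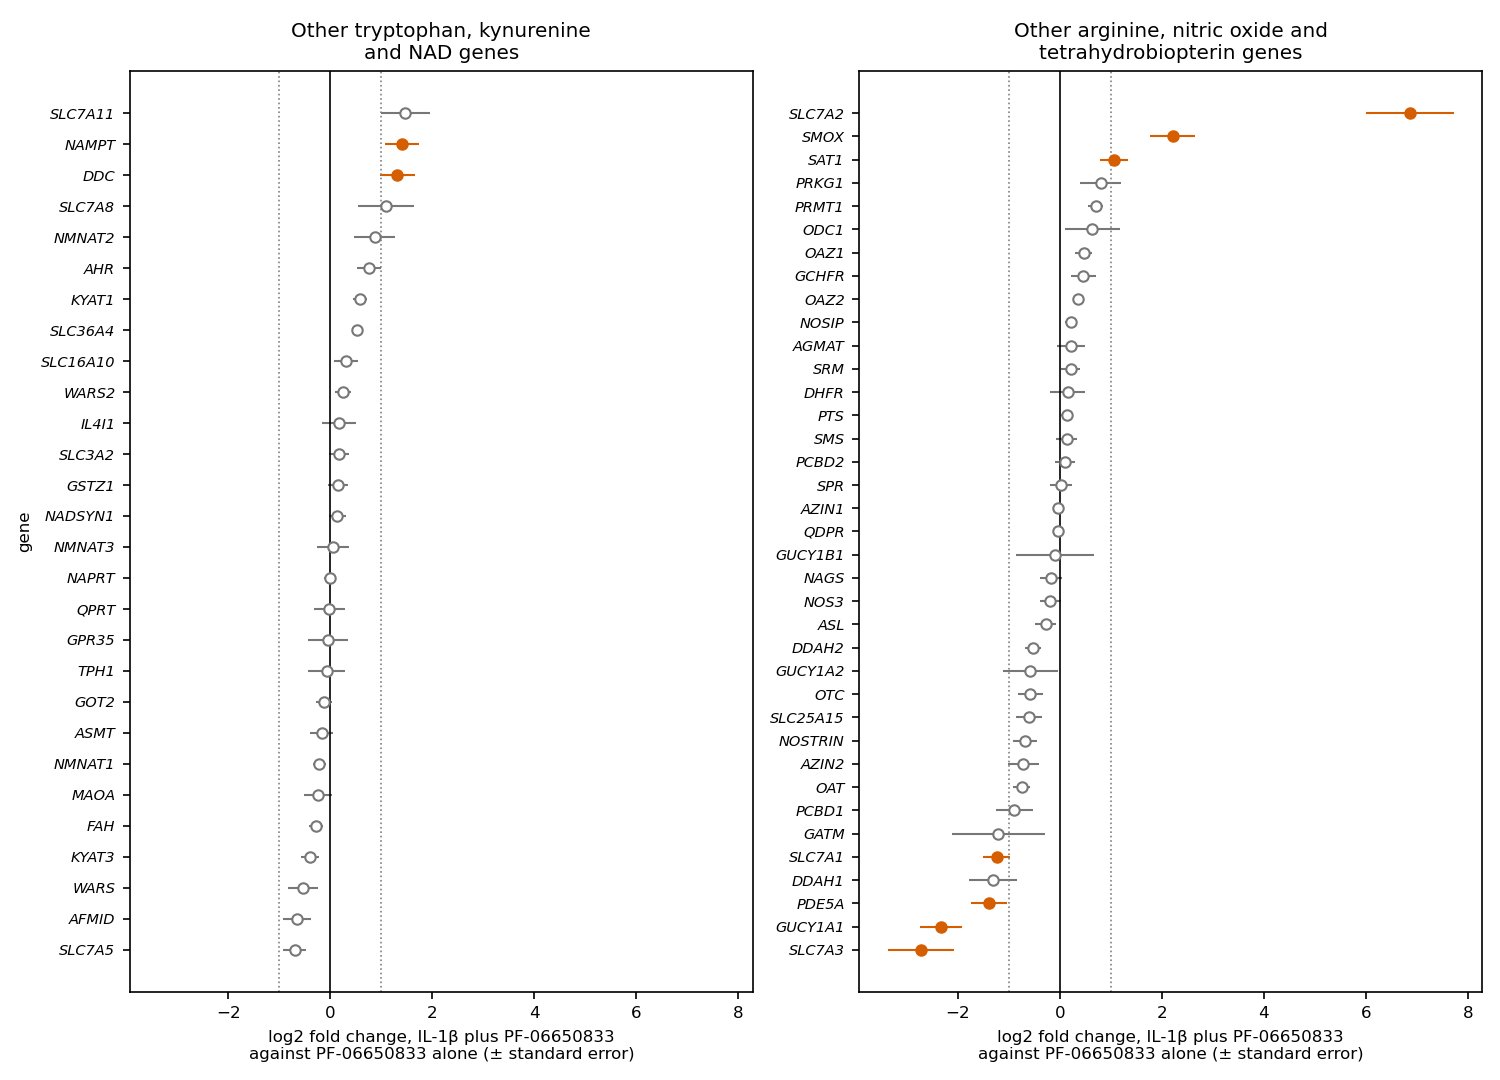
Log2 difference with its standard error, IL-1β/PF minus PF alone, for the tested genes outside the 10 enzymes, 28 of tryptophan, kynurenine and NAD metabolism on the left and 37 of arginine, nitric oxide and tetrahydrobiopterin metabolism on the right. Dotted lines mark a difference of 1 in either direction. Filled points passed both thresholds, 2 in the first list and 7 in the second, and SLC7A2 lies farthest out at 6.87.

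For the 3 enzymes with the largest differences, the genes most alike over the 10 libraries were listed by Pearson correlation. Only tested genes with a symbol were ranked, and genes with a LOC name were left out. The libraries fall into 2 groups that differ in these genes and share 5 donors, so the correlations largely hold the group difference and carry no p. NOS2 was most like AMPD2 (r = 0.985), TNFAIP3 (0.963) and ZNF202 (0.962), whose own log2 differences were 0.41, 2.42 and 0.43. TAT was most like AGR2 (r = 0.987), REL (0.981) and KLHL42 (0.980). AADAT was most like NEDD1 (r = 0.977), NELL2 (0.974) and ADAMTSL2 (0.963), which differed by -0.41, -5.08 and -1.71.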

How the data were processed

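RNA from the 3D collagen gels was sequenced by the authors in 10 libraries. The authors checked reads with FastQC (0.11.9), assigned them to the EquCab 3.0 transcriptome with Salmon (1.8) and GC-bias correction, imported them with tximport and tested them with DESeq2 (1.36). The deposited values are log2 values, normalised between libraries. The transformation is not named and was recognised as variance stabilisation from the shared lowest value of 3.433, the value of 7898 genes in all libraries. It was inverted to give normalised counts, and the spacing of low values gave approximate reads. Between 69.6% and 87.3% of low values lay within 0.15 of a whole read, against 30% if evenly spread. Reads serve to describe depth only.

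Groups were taken from the labels, and replicate numbers denote donors, whose lines the labels name. Libraries of the same donor deviated together (r = 0.367 to 0.506 in 5 pairs, mean -0.107 over 20 other pairs). Genes with values over the minimum in 5 or more of the 10 libraries were fitted with limma (3.58.1, R 4.3.3) with a mean-variance trend and no donor term, as the study names none. Calls needed an adjusted p below 0.05 (Benjamini-Hochberg over 17992 genes) and an absolute log2 difference of at least 1. The scripts were tested on simulated data. The 10 enzymes and the pathway and marker lists were chosen with earlier results of these data known. All 10 enzymes are named, as are the called pathway genes and those whose role borders on an enzyme. For the 3 enzymes with the largest differences, the 3 most alike genes with a symbol are named. Alternatives were other scales, filters, normalisations, variance models and thresholds, the donor block, and leaving out each donor or library. Symbols were matched to a RefSeq table of another horse assembly, in which all 10 enzymes were found, and it was used for names only. Sequences, positions and gene lengths were not used here.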

Additional observations from a re-analysis of the deposited data

Results flagged for a closer look

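In 3 of 72 groups of 5 libraries, 1 library lay far from the other 4 by Dixon's criterion, where chance gives about 3.6 (1 in 20 groups). KYNU was at 4.09 in donor 5 with IL-1β/PF, which is 2 reads, while the other 4 libraries were at the value of 0 reads. With 4 libraries tied, any read in the remaining library meets the criterion. This flag therefore carries no weight, and the figure for chance does not hold for such ties. AADAT was at 6.76 in donor 3 with PF alone, against 7.39 to 7.57 in the others. ASS1 was at 5.18 in donor 4 with PF alone, which is 16 reads, against 3.88 to 4.25 in the others, and without this library the mean difference of ASS1 moved from -0.32 to -0.098.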

How the results depend on the processing

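Without a minimum difference 2782 genes passed instead of 1202, and 4 instead of 2 of the tryptophan, kynurenine and NAD genes. With the replicate block the counts were 1486 genes over all, 2 and 8 in the pathway lists (DDAH1 was added) and 4 enzymes. The block changed no other call in the pathway lists or among the enzymes. Over all genes, 1195 of the 1202 calls were kept with the block. Across the 15 fits that left out a donor or a library, the count ranged from 762 to 1422 genes, from 0 to 4 in the tryptophan list, from 4 to 9 in the arginine list and from 3 to 4 enzymes. The counts were lowest without donor 1, 2 or 5, except that the arginine list had 5 without donor 2. The enzyme count was also 3 without either library of donor 2 or of donor 5. With only genes above the lowest value in all libraries 2 enzymes passed (AADAT and GCH1), because NOS2 and TAT were then not tested. On log2(normalised count + 1) the differences were 2.08 for IDO1, 0.34 for KYNU, 0.50 for KMO and 4.51 for TAT, and with a pseudocount of 0.5 they were 2.75, 0.49, 0.77 and 5.47, with 7.15 for NOS2 and -1.04 for ASS1. On the deposited scale they were 0.81, 0.13, 0.21, 2.02, 5.03 and -0.32, so the size for genes with few reads rests on the scale. Among 28 named pathway genes, 4 of the 9 called (SLC7A2, SLC7A1, SMOX and GUCY1A1) kept their call in all alternatives and 5 lost it in some fits with fewer libraries, 3 of 15 for NAMPT, 8 for DDC, 2 for SLC7A3 and 6 each for SAT1 and PDE5A. SLC3A2 and SPR turned direction in some of these fits, with ranges of -0.095 to 0.30 and -0.15 to 0.17. Leaving out a donor removes 2 libraries and so lowers power.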
